A study of Mus musculus with 16 samples.

Results

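The Bcl2 family decides whether the outer mitochondrial membrane of a cell stays closed or opens during apoptosis. The 10 genes of this family followed here were Bcl2, Bcl2l1, Bcl2l2, Mcl1, Bak1, Bid, Bad, Bcl2l11, Bnip3 and Bnip3l. Every probe set that the platform annotation gives to 1 of these symbols was taken, which made 30 of the 22690 probe sets on the array. A probe set is a group of short probes that together report 1 transcript. Of the 30, 26 passed the filter on dim values and were tested, among 17736 tested in all. These 26 stood for 9 of the 10 genes, because the only Bcl2 probe set was too dim to be tested.

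The RNA came from mouse embryonic stem (ES) cells of a mixed 129/C56Bl/6 background. Wild-type cells (unr+/+, here WT) and cells homozygous for an inactivated unr allele (unr-/-, here KO) were lines from single blastocysts of a cross between heterozygous mice. Each genotype was sampled while growing (3 arrays), 2 h after gamma irradiation with 8 Gy (3 arrays) and 24 h after gamma irradiation at a dose not given in the sources used here (2 arrays). All 6 groups had been grown with LIF on mitomycin-treated embryonic fibroblasts, and trypsinised cells stood for 1 h on gelatin to remove these feeders before lysis in Trizol. The labels number the samples as experiments and do not say whether they came from separate lines or cultures, so p-values measure only how far these samples spread, which can be a technical spread. No unirradiated cells of a matched time were labelled, so irradiation and time in culture cannot be told apart at 24 h. The gene inactivated in KO cells was not analysed here; genotypes are those of the labels.

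Members of the family share short Bcl2 homology (BH) regions. Bcl2, Bcl2l1 (Bcl-xL), Bcl2l2 (Bcl-w) and Mcl1 hold cells alive by binding the killers. Bak1 is an effector that forms pores in the outer membrane and releases cytochrome c. Bid, Bad and Bcl2l11 (Bim) carry only the BH3 region: Bid and Bim can activate the effectors, and Bad occupies the survival proteins. Bnip3 and Bnip3l (Nix) are BH3-like proteins of the outer mitochondrial membrane that are best known as mitophagy receptors, and Bnip3 is a target of the hypoxia-inducible factors. In ES cells, Mcl1 is a short-lived survival protein, and p53 raises the BH3-only genes Bbc3 (Puma) and Pmaip1 (Noxa) after DNA damage.

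The arrays were scaled to 1 constant and correlated with each other at 0.953 to 0.987 across probe sets on the log2 scale. Recorded hybridisation times placed them in 4 runs on 2 days, where arrays recorded within minutes of each other were taken as 1 run. Day 2 held 4 arrays, those of replicate 3 from the growing and 2 h groups of both genotypes. The control signal of 18S ribosomal RNA passed 300 on 2 arrays, at 459 in WT growing replicate 1 and at 2055 in the KO array numbered 2 at 2 h, against 24.4 to 110.3 on the others. All 12 listed ES cell markers were measured, and the defining ones were bright on every array, with Pou5f1 at 873 or more and Sox2 at 567 or more. Feeder fibroblast markers summed to between 495 and 1798 in WT growing cells and to between 670 and 1142 in KO growing cells, and 0 of 12 measured were called in KO against WT, 2 h against growing or 24 h against growing. Their mean log2 value was 6.77 in WT growing replicate 3, on day 2, against 5.37 and 5.66 in the others of that group. Replicate 3 also read higher in WT 2 h (6.75 against 5.70 and 5.79) and KO growing cells (6.34 against 5.61 and 5.69). In KO 2 h cells replicate 3 read 6.08, between 6.16 and 5.59. In bulk samples fewer cells of a type and less RNA per cell cannot be told apart.

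Changes are differences of log2(intensity + 16) with their standard error from 1 limma fit to all 16 arrays, and adjusted p-values are Benjamini-Hochberg values over all 17736 probe sets with a threshold of 0.05. The added 16 shrinks the change of dim probe sets. The fit was read in each state or genotype and as equally weighted means, over the 3 states for KO against WT and over both genotypes for irradiated against growing. Irradiated groups at 2 h and 24 h share their growing control arrays, and the means use the same arrays as the single comparisons.

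Bnip3, Mcl1, Bak1 and Bcl2l11 are among the members called below, and the 250 bases before their start sites are given here to show what letters lie there. They are RefSeq sequences of mouse build GRCm38.p6, written 5′ to 3′ on the gene's strand, and end at the base before the start site. Capitals mark a match to 1 of 5 motifs searched on both strands: ACGTG, the core of the hypoxia response element; GTAAACA, bound by FOXO factors; TTCNNNGAA, bound by STAT factors; TGACGTCA, the cAMP response element; and the p53 response element. The motifs and the genes shown were chosen with results of these data known. Of the other called members, Bcl2l2 held no match in its stretch, which is not printed, and no stretch of Bnip3l was listed. The Bnip3 stretch lies on the minus strand of chromosome 7 (chr7:138909507-138909756), that of Mcl1 on the plus strand of chromosome 3 (chr3:95658471-95658720), that of Bak1 on the minus strand of chromosome 17 (chr17:27028628-27028877), and the more upstream of 2 Bcl2l11 starts on the plus strand of chromosome 2 (chr2:128125788-128126037).
Bnip3: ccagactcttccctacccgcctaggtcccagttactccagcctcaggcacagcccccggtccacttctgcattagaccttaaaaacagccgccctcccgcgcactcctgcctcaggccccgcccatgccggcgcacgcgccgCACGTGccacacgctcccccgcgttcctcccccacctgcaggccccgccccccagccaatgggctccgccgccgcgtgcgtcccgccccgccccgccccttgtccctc
Mcl1: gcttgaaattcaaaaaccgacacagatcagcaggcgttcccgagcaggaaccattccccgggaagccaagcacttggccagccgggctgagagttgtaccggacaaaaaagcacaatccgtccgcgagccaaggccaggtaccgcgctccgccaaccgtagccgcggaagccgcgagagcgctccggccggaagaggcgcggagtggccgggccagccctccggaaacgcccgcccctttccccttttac
Bak1: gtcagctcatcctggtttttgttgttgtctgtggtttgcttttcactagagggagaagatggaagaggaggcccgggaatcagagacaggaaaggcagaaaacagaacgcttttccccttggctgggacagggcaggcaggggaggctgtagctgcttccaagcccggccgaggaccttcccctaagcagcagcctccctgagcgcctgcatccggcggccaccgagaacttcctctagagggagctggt
Bcl2l11: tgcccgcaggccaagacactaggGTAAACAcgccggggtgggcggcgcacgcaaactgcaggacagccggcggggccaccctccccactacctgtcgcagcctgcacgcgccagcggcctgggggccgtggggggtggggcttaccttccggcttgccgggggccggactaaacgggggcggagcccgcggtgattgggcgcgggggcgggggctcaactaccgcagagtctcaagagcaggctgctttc

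Of 13 listed promoters of 9 members, 1 held ACGTG, that of Bnip3, where overlapping matches on the 2 strands ran from 108 to 103 bases before the start. ACGTG was in 16.6% of all 32851 promoter stretches of the same length. GTAAACA was in 1 of the 13, the upstream Bcl2l11 start, between 227 and 221 bases before it, and in 3.17% of all. The other 3 motifs were in 0 of the 13, and they were in 7.02% (TTCNNNGAA), 1.55% (TGACGTCA) and 0.0335% (p53 element, with up to 10 bases between its parts) of all promoters. A match is only a match of letters, and no match says only that those letters are not in this window. The Mcl1 and Bnip3 stretches were rich in G and C (64.4% and 72.4%, against a median of 52.4% over all promoters).

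**Figure D1:**
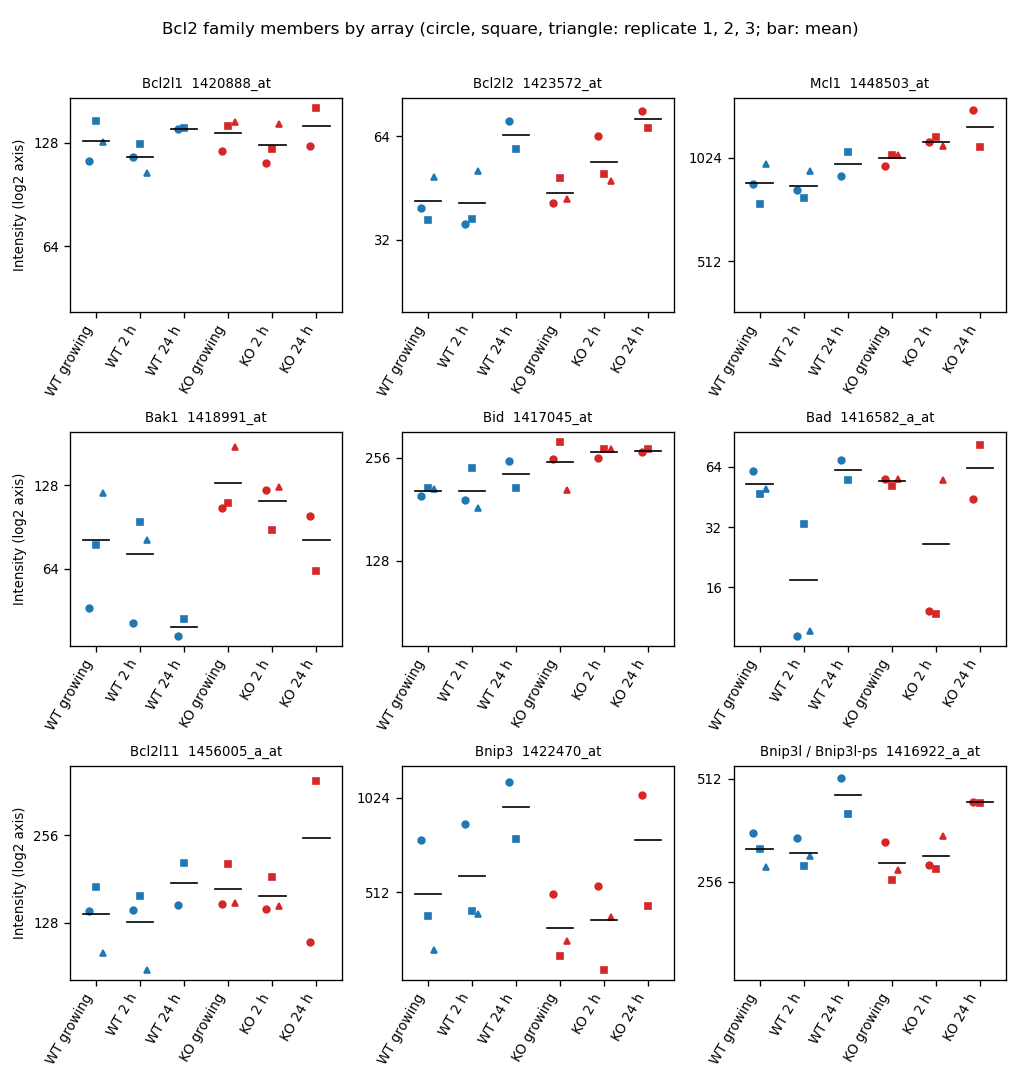
Intensity of the representing probe set of 9 Bcl2 family members on each of the 16 arrays (vertical log2 axis, own range per panel), by group along the horizontal axis, with WT in blue, KO in red and arithmetic means as bars. Bak1 is the panel in which every KO mean lies above the WT mean of the same state and both 24 h means lie lowest for their genotype, and Bnip3 shows replicate 1 (circles) as the highest array in all 6 groups.

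Mcl1 was measured by 6 probe sets and was among the brightest members. The probe set with the highest mean, 1448503_at, read 861, 752 and 982 in WT growing cells, 825, 780.2 and 940.2 at 2 h, with 907 and 1064 at 24 h. In KO cells it read 972, 1047 and 1047 while growing, 1136, 1179 and 1112 at 2 h, with 1415 and 1098 at 24 h. KO arrays were above all WT arrays at 2 h and at 24 h, while the lowest KO growing array fell below the highest WT growing one. The KO mean over the 3 states was higher by 0.34 ± 0.08 (adjusted p = 0.0216).

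A second Mcl1 probe set designed on the same transcript record, 1416881_at, read 613, 596 and 661 in WT growing cells, 728, 611 and 663 at 2 h, with 677 and 818 at 24 h. The KO arrays read 669.9, 729 and 748 while growing, 879.7, 954 and 690.0 at 2 h, with 1139 and 884 at 24 h. The KO arrays lay above the WT arrays in the growing and 24 h states and overlapped them at 2 h, and the KO mean was higher by 0.31 ± 0.08 (adjusted p = 0.0442). Another probe set on that record, 1416880_at, gave 0.05 ± 0.12 with a 95% interval of -0.21 to 0.31. The 3 Mcl1 probe sets with the suffix _x_at, which marks possible cross-hybridisation, gave 0.07, -0.13 and 0.05 (adjusted p from 0.575 to 0.881). Thus 2 of 6 Mcl1 probe sets were called higher in KO cells, and the other 4 were not.

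**Figure D2:**
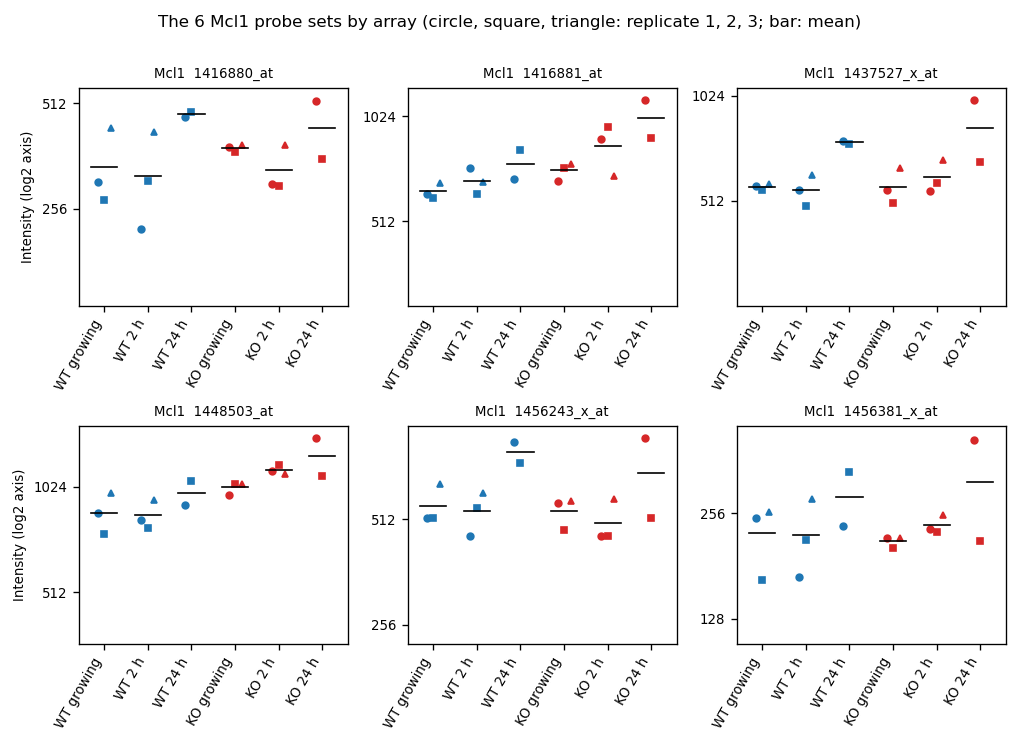
Intensity of the 6 Mcl1 probe sets on each array (vertical log2 axis, own range per panel), by group, with WT in blue, KO in red and arithmetic means as bars. The probe sets 1448503_at and 1416881_at have each KO mean above the WT mean of the same state, as has 1437527_x_at, whose growing means are both 562, while the other 3 have at least 1 KO mean below; KO 24 h replicate 1 (circle) is the highest array in all 6 panels.

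Bak1, the pore-forming effector, was higher in KO than in WT cells and lower at 24 h than in growing cells. Its probe set 1418991_at read 46.3, 78.2 and 120.2 in WT growing cells, 40.9, 94.5 and 81.4 at 2 h, with 36.5 and 42.2 at 24 h. In KO cells it read 106, 110.1 and 176 while growing, 124, 88.0 and 126 at 2 h, with 99.6 and 62.7 at 24 h. The WT 24 h arrays lay below all WT growing arrays and below both KO 24 h arrays, and the genotypes overlapped while growing and at 2 h. KO exceeded WT by 0.67 ± 0.17 over the 3 states (adjusted p = 0.032), with 0.63 while growing, 0.59 at 2 h and 0.79 at 24 h, none of which was called by itself. The other Bak1 probe set, 1425716_s_at, gave 0.58 ± 0.21 (adjusted p = 0.136), from -0.02 in growing cells to 1.08 at 2 h.

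Over the 3 states, 3 of 26 member probe sets (2 genes) were called higher in KO cells and 0 were called lower, and limma gave an unadjusted p under 0.05 to 7. Among all probe sets tested, 2.01% were higher and 2.12% lower. Counted by 1 representing probe set per gene, 2 members (Mcl1 and Bak1) were higher and 0 lower, against 2.11% and 2.32% of 10252 genes. The median change of the 26 was 0.14, with 21 above 0, beside 0.01 over all tested, of which 53% were above 0. In single states 0 of 26 passed, with an unadjusted p under 0.05 for 2 while growing, 6 at 2 h and 3 at 24 h, while 0.248%, 0.395% and 0.0620% of all probe sets were called. The 6 at 2 h include the dim Bcl2l2 1430453_a_at, which passed the filter only through KO 2 h cells, where it is high.

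Bid came close to the threshold. Bid is the BH3-only protein that caspase-8 cleaves, and 7 of 8 KO arrays of 1417045_at read above the highest WT array. WT arrays ran from 182 through a median of 208 to 249, and KO arrays from 206 through 268 to 284. The change was 0.28 ± 0.08 (adjusted p = 0.0649, 95% interval 0.11 to 0.45), and the second Bid probe set, 1448560_at, gave 0.35 ± 0.11 (adjusted p = 0.0858). Neither was called. Bid 1417045_at passed once WT 2 h replicate 2 was left out (0.31, adjusted p = 0.0456), or KO growing replicate 3 (0.32, adjusted p = 0.0416), and 1448560_at without WT growing replicate 2 (0.42, adjusted p = 0.0241). Each of these arrays read towards the other genotype (238, 206 and 103), so leaving it out raises the change by itself and adds no support.

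The remaining members were not called between genotypes. Bcl2l11 1435448_at gave 0.24 ± 0.11 (adjusted p = 0.239) and the other 4 Bcl2l11 probe sets lay between -0.02 and 0.27. Bad gave 0.10 and 0.22, Bcl2l2 0.16 and 0.37, and Bcl2l1 between 0.06 and 0.24. The brightest Bcl2l1 probe set, 1420888_at, had the narrow interval of -0.12 to 0.25. Bnip3 pointed the other way at -0.38 ± 0.20 (adjusted p = 0.327, interval -0.80 to 0.04), and the 3 probe sets shared by Bnip3l and the pseudogene Bnip3l-ps gave -0.07, -0.01 and 0.18.

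**Figure D3:**
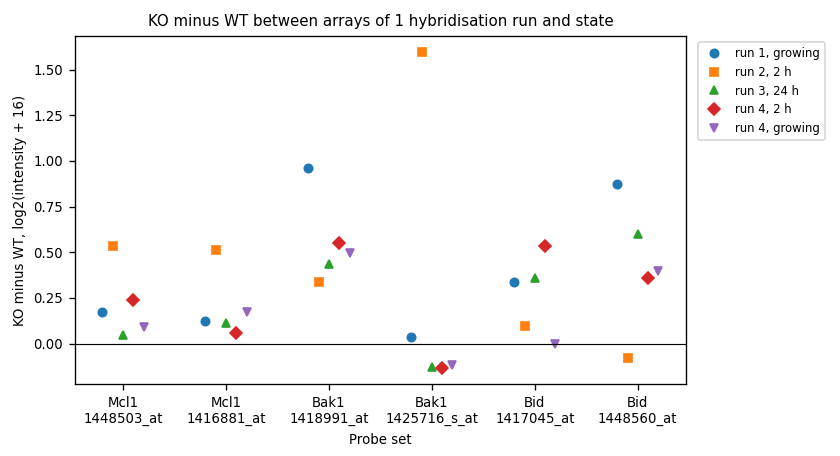
Difference KO minus WT in log2(intensity + 16) between arrays of 1 state hybridised in the same run, for 2 Mcl1, 2 Bak1 and 2 Bid probe sets; each symbol is 1 of 5 pairs. All 5 pairs lie above 0 for both Mcl1 probe sets and for Bak1 1418991_at, and 2 of 5 do for Bak1 1425716_s_at.

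Within hybridisation runs, 5 pairs of a KO and a WT array of the same state could be compared. Mcl1 1448503_at was higher in KO in 5 of 5 pairs (0.04 to 0.53), Mcl1 1416881_at in 5 of 5 (0.06 to 0.51) and Bak1 1418991_at in 5 of 5 (0.34 to 0.96). Bcl2l11 1435448_at was also higher in 5 of 5 (0.03 to 0.47), and each Bid probe set in 4 of 5. Bak1 1425716_s_at was higher in 2 of 5 and Mcl1 1437527_x_at in 3 of 5. Mcl1 1416880_at, 1456243_x_at and 1456381_x_at were higher in 1 of 5 each. The pairs use arrays that also entered the fit, and the share of all probe sets higher in 5 of 5 was not counted. Without the second hybridisation day 0 of the 26 were called, with a Bak1 change of 0.69 (adjusted p = 0.0637) and an Mcl1 1448503_at change of 0.39 (adjusted p = 0.0559).

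Single arrays decided the number of these calls. Without WT 24 h replicate 1, 0 of 26 were called, with Mcl1 1448503_at at 0.30 (adjusted p = 0.0762), and 1 was called without WT growing replicate 1, KO 2 h replicate 1 or KO 24 h replicate 1. Leaving out KO 24 h replicate 1 also ended the call of Mcl1 1448503_at (0.28, adjusted p = 0.0665). Bak1 1418991_at lost its call without any 1 of 8 arrays, at 0.57 to 0.69 with adjusted p from 0.0513 to 0.0962. These were replicate 1 of WT growing, WT 2 h, KO 2 h and KO 24 h, both WT 24 h arrays, and replicate 3 of KO growing and KO 2 h. Mcl1 1416881_at lost its call without any 1 of 11 arrays, at 0.25 to 0.33 with adjusted p from 0.061 to 0.138. It was still called without replicate 3 of WT growing or KO 2 h, replicate 1 of WT 2 h, or replicate 2 of either 24 h group.

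Primitive endoderm is the lineage facing the blastocoel that later forms yolk sac endoderm, and some of its markers differed between genotypes. Of 15 measured, 6 were called higher in KO cells over the 3 states (Srgn 1.86, Cubn 1.51, Dab2 0.91, Gata6 0.59, Gata4 0.53 and Sox7 0.42) and 0 lower. The other 9 were not called, and 2.11% of all genes were higher. Median intensities of the 6 ran from 13.3 (Sox7) to 45.3 (Dab2), beside array medians of 26.7 to 37.3. Gene lists were chosen with earlier results of these data known, so the count is a description. The summed intensity of the 15 markers ran from 1121 to 1683 in WT growing and from 1846 to 1952 in KO growing cells, from 1138 to 1780.3 and from 1615 to 1975 at 2 h, and from 1879 to 2401 and from 2303 to 2795 at 24 h. Sparc (423 to 1122 over all arrays) and Lamc1 (192 to 489) were the brightest, and neither was called between genotypes. These sums therefore mostly follow genes other than the 6 called. Of 12 ES cell markers, 2 were lower in KO (Klf2 by -0.48 and Nanog by -0.47). The part of these cells in the Mcl1 and Bak1 differences was not tested.

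At 2 h after irradiation, 0 of 26 member probe sets were called in WT cells, in KO cells or in the mean of both, with 2, 1 and 1 at an unadjusted p under 0.05 by limma. In the single genotypes 0.147% (WT) and 0.107% (KO) of all probe sets were called, and in the mean 0.338% were higher and 0.0564% lower, or 0.400% and 0.0683% of genes. The median change of the members was 0.03, beside 0.00 over all probe sets. Mcl1 1448503_at changed by 0.07 ± 0.09 with a 95% interval of -0.12 to 0.26, and Bcl2l1 1420888_at by -0.13 ± 0.10 with an interval of -0.33 to 0.08. For Bcl2l11 1435448_at the interval was -0.23 to 0.29, and for Bid 1417045_at it was -0.15 to 0.24.

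One Bad probe set lay at the edge of the threshold at 2 h. Bad 1416582_a_at read 61.1, 46.7 and 49.7 in WT growing cells and 9.15, 33.2 and 9.66 at 2 h. The KO arrays read 55.8, 51.5 and 55.8 while growing and 12.2, 11.8 and 55.0 at 2 h. All 3 WT arrays at 2 h lay below the growing ones, and 2 of 3 KO arrays did, while KO 2 h replicate 3 stayed among the growing values. The difference was -0.99 ± 0.22 (adjusted p = 0.0502), and it was -1.22 (adjusted p = 0.00142) without KO 2 h replicate 3 and -1.15 (adjusted p = 0.0141) without WT 2 h replicate 2. Each of these arrays was the highest of its 2 h group, so leaving it out enlarges the fall by itself and adds no support. At 24 h the same probe set read 68.9 and 55.0 in WT and 44.3 and 81.9 in KO. The other Bad probe set, 1416583_at, is designed on the same transcript record and differed by 0.00 ± 0.14 at 2 h (interval -0.29 to 0.29), so the 2 Bad probe sets disagreed.

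Other genes of the family were taken from a list of 19, of which 11 were measured, and 1 was called at 2 h in both genotypes. Bbc3, the BH3-only p53 target Puma, rose from 144 ± 35.8 (SD, n = 3) to 265 ± 10.3 (n = 3) in WT and from 139 ± 24.6 (n = 3) to 282 ± 16.8 (n = 3) in KO cells, by 0.89 ± 0.11 in the mean (adjusted p = 0.00017). Pmaip1, the BH3-only p53 target Noxa, gave 0.32 ± 0.15 (adjusted p = 0.84) at that time. Of 21 measured p53 targets, 12 were higher at 2 h and 0 lower, including Cdkn1a (1.67) and Mdm2 (1.33). Among regulators of Bcl2 family proteins, Fbxw7, a receptor of the ubiquitin ligase that targets Mcl1, was the 1 of 25 called (0.51 ± 0.10, adjusted p = 0.0176). None of 14 caspase and apoptosome genes (0 of 14) or of 5 inhibitors of apoptosis (0 of 5) was called. Values of Bax are not reported here.

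**Figure D4:**
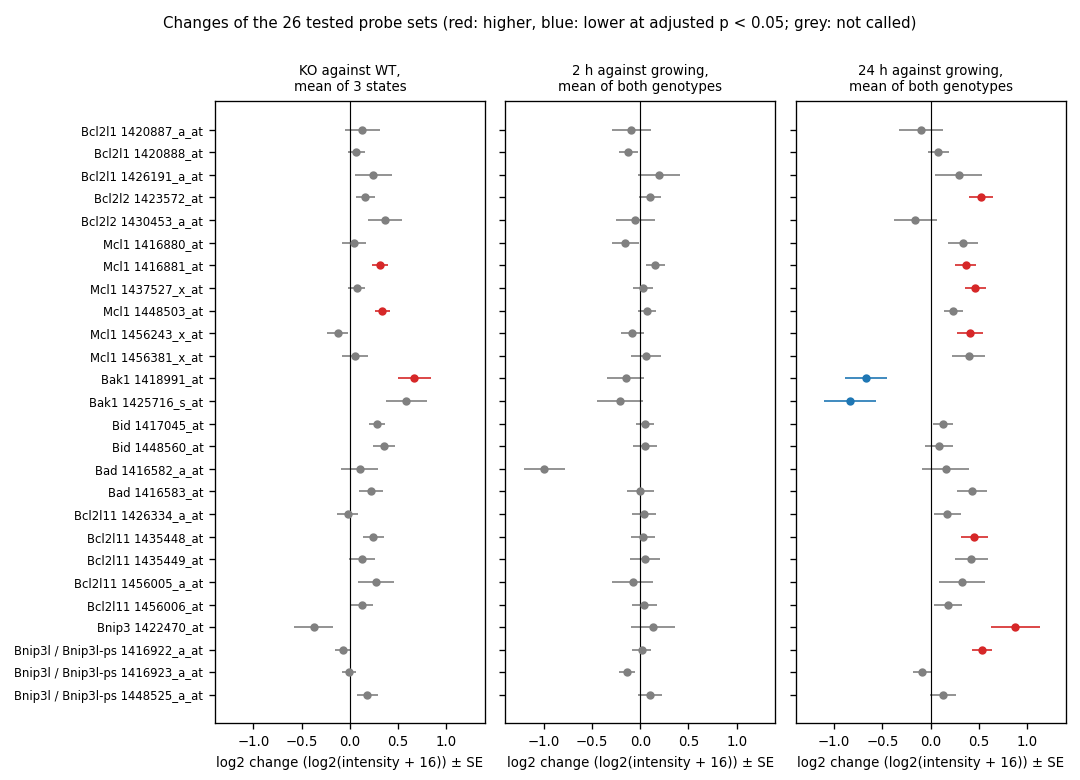
Change in log2(intensity + 16) with its standard error for the 26 tested probe sets in 3 comparisons, KO against WT over 3 states (left), 2 h against growing (middle) and 24 h against growing (right), both over the genotypes. Red points were called higher and blue lower at an adjusted p under 0.05, with 3 red on the left, 0 in the middle, and 7 red and 2 blue on the right.

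At 24 h, 9 of 26 member probe sets (6 genes) were called in the mean of both genotypes, 7 higher and 2 lower, with 14 at an unadjusted p under 0.05. Among all probe sets 13.0% were higher and 7.98% lower, or 14.1% and 8.20% of genes, so much of the transcriptome moved at this time. The members' median change was 0.26 beside 0.07 over all tested, with 21 of 26 above 0 beside 60.1% of all tested. In WT alone 0 of 26 were called (9 at an unadjusted p under 0.05, 8.61% of all probe sets called) and in KO alone 2 of 26 (8 unadjusted, 8.02% of all).

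Bnip3, the mitophagy receptor, was higher at 24 h. Its probe set 1422470_at read 750.4, 431 and 336 in WT growing cells, 844, 447 and 435 at 2 h, with 1149.7 and 754 at 24 h. In KO cells it read 504, 321 and 357 while growing, 538, 289 and 427 at 2 h, with 1039 and 464 at 24 h. Both WT 24 h arrays lay above all WT growing arrays, while the lower KO 24 h array lay among the KO growing ones. Bnip3 rose by 0.88 ± 0.25 (adjusted p = 0.0188), the highest change of any member, with 0.51 and 0.61 in the 2 pairs within a run. Without WT 24 h replicate 1 the change was 0.73 (adjusted p = 0.103), without KO 24 h replicate 1 it was 0.60 (adjusted p = 0.152), and without the second day 0.73 (adjusted p = 0.102).

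Bnip3 was also the 1 member probe set of 26 whose highest array was replicate 1 in all 6 groups, a pattern that 0.942% of the 17736 probe sets had. It was noticed in the values of Bnip3, so its count is a description. Of 23 measured hypoxia and glycolysis genes, 2 shared it (Egln3 and Pfkp). The replicates numbered 1 were hybridised in run 1, other than KO at 2 h and 24 h, which were in run 2.

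The 3 probe sets shared by Bnip3l and its pseudogene Bnip3l-ps cannot be assigned to either. One of them, 1416922_a_at, read 355, 320.01 and 283 in WT growing cells, 343, 284 and 304 at 2 h, with 514 and 403 at 24 h. The KO arrays read 336, 259 and 278 while growing, 287, 279.6 and 347 at 2 h, with 439 and 435 at 24 h. The 24 h arrays of each genotype lay above all its growing arrays. The rise was 0.53 ± 0.11 (adjusted p = 0.00184), with 0.50 in WT (adjusted p = 0.0506) and 0.57 in KO (adjusted p = 0.0292), and it was called under all 28 alternatives tried. In KO alone the call was lost without KO growing replicate 2 (0.49, adjusted p = 0.0862), KO growing replicate 3 (0.54, adjusted p = 0.087) or either KO 24 h array (0.56 and 0.58, adjusted p = 0.161 and 0.0767). The other 2 shared probe sets gave -0.09 (interval -0.28 to 0.11) and 0.13 (interval -0.16 to 0.42), so the 3 disagreed.

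Bcl2l2, the survival gene for Bcl-w, rose by 0.52 ± 0.12 (adjusted p = 0.00493). Its probe set 1423572_at read 39.6, 36.4 and 48.6 in WT growing cells, 35.5, 36.8 and 50.8 at 2 h, with 70.8 and 58.6 at 24 h. In KO cells it read 40.8, 48.3 and 42.0 while growing, 64.3, 49.7 and 47.4 at 2 h, with 76.1 and 67.6 at 24 h. The 24 h arrays of each genotype lay above all its growing arrays, and the rise was called under all 28 alternatives (0.31 to 0.67). A dim second Bcl2l2 probe set, 1430453_a_at, gave -0.16 ± 0.22.

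Mcl1 was called higher at 24 h by 3 of its 6 probe sets and gave positive changes in all 6. Of the 3 called, only 1416881_at is without the suffix _x_at, which marks possible cross-hybridisation. The highest change was that of 1437527_x_at, which read 565, 551 and 572 in WT growing cells and 759.8 and 747 at 24 h, and 548, 503 and 636 against 993 and 659.7 in KO cells. The 24 h arrays were above the growing ones in both genotypes. It rose by 0.47 ± 0.11 (adjusted p = 0.00597), or 0.32 (adjusted p = 0.0549) without KO 24 h replicate 1. In KO alone it rose by 0.52 (adjusted p = 0.0495), a call that ended without any 1 of 15 arrays (all but KO 24 h replicate 2), with the lowest change without KO 24 h replicate 1 (0.23, adjusted p = 0.51).

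Mcl1 1416881_at rose by 0.37 ± 0.11 (adjusted p = 0.0205), and lost the call without WT 24 h replicate 2 (0.30, adjusted p = 0.0899), KO growing replicate 1 (0.34, adjusted p = 0.0511) or KO 24 h replicate 1 (0.28, adjusted p = 0.126). Mcl1 1456243_x_at rose by 0.41 ± 0.13 (adjusted p = 0.0383), and lost the call without any 1 of 6 arrays (replicates 1 and 2 of WT growing and of KO growing, and replicate 1 of WT 24 h and KO 24 h), down to 0.22 (adjusted p = 0.276) without KO 24 h replicate 1. The probe set with the highest mean, 1448503_at, gave 0.24 ± 0.10 (adjusted p = 0.107), and the remaining pair gave 0.34 and 0.39 (adjusted p = 0.143 and 0.109). KO 24 h replicate 1 was the highest of all 16 arrays for each of the 6 Mcl1 probe sets, as the plot of the Mcl1 probe sets shows.

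Bcl2l11, the gene for Bim, rose at 1 of 5 probe sets. Bcl2l11 1435448_at read 135, 144 and 90.3 in WT growing cells and 143 and 193 at 24 h, and 148, 152 and 131 against 171 and 256 in KO cells. The KO 24 h arrays were above the KO growing ones, and the WT groups overlapped. The rise was 0.45 ± 0.14 (adjusted p = 0.0247), and the call was lost without WT growing replicate 3, WT 24 h replicate 2, KO growing replicate 3 or KO 24 h replicate 2, at 0.32 to 0.43 with adjusted p from 0.056 to 0.134. The other 4 probe sets gave 0.17 to 0.42 (adjusted p from 0.0953 to 0.425). Among them, 1456005_a_at, the one with the highest mean, spread widest, at 109.8 and 392 in the KO 24 h arrays.

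Bak1 was the 1 gene of the 6 called that fell at 24 h, and it did so at both of its probe sets. Bak1 1418991_at fell by 0.67 ± 0.22 on the log2 scale (adjusted p = 0.0334), with the values given above. Bak1 1425716_s_at read 31.4, 41.7 and 62.8 in WT growing cells, 4.45, 19.0 and 46.2 at 2 h, with 3.52 and 19.3 at 24 h. The KO arrays read 32.6, 42.9 and 56.5 while growing, 89.6, 54.3 and 40.5 at 2 h, with 39.4 and 16.2 at 24 h. It fell by 0.84 ± 0.27 (adjusted p = 0.0339), and its 24 h arrays lay below the growing ones in WT and overlapped them in KO.

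The Bak1 call at 24 h was sensitive to single arrays. For 1418991_at it was lost without any 1 of 6 arrays (WT growing replicates 2 and 3, both WT 24 h arrays, KO growing replicate 3 and KO 24 h replicate 2), at -0.53 to -0.71 with adjusted p from 0.0533 to 0.138. For 1425716_s_at it was lost without any 1 of 5 arrays (WT growing replicate 3, WT 24 h replicate 1, KO growing replicates 2 and 3 and KO 24 h replicate 2), at -0.63 to -0.84 with adjusted p from 0.0521 to 0.185. Without the second hybridisation day the changes were -0.42 (adjusted p = 0.195) and -0.67 (adjusted p = 0.0795). In the 2 pairs within a run, 1418991_at changed by -0.68 and -0.25 and 1425716_s_at by -1.28 and -0.87.

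The other members were not called at 24 h. Bad 1416583_at gave 0.43 ± 0.15 (adjusted p = 0.0521, interval 0.11 to 0.75) and Bad 1416582_a_at 0.16 ± 0.24. Bid gave 0.13 and 0.09, with intervals of -0.08 to 0.35 and -0.21 to 0.38. Bcl2l1 gave -0.10, 0.08 and 0.29. Bcl2 1422938_at, the probe set too dim to test, ran from 2.00 to 21.1 over the 16 arrays with every group mean below the filter's intensity of 11.9, and 3 further untested probe sets, 1 of Bcl2l1 and 2 of Bcl2l2, stayed at or under 12.2.

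The test of whether irradiated KO cells changed differently from irradiated WT cells called 0 of 26 at 2 h and 0 of 26 at 24 h (limma, 2 and 0 at an unadjusted p under 0.05), and 0% of all probe sets in each. Those 2 at 2 h were Bak1 1425716_s_at (1.10 ± 0.49, adjusted p = 0.459) and Bcl2l2 1430453_a_at (1.02 ± 0.40, adjusted p = 0.42). The dim Bcl2l2 probe set averaged 20.1 in KO 2 h cells (38.8, 9.71 and 11.7) and 2.27 to 11.6 in the other groups. With the filter at 11.9 it was tested only through KO 2 h, the group where it is high, so its value is no support for a difference. For Mcl1 1448503_at the interval of the difference was -0.20 to 0.56 at 2 h and -0.33 to 0.52 at 24 h.

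Levels in order of group means were compared within each representing probe set. Bak1 1418991_at was highest in KO growing cells (130.6 ± 39.5, SD, n = 3) and lowest in WT 24 h cells (39.4 ± 4.0, n = 2), and no 2 neighbours in the order were free of overlap (0 of 5). Mcl1 1448503_at ran from 1257 ± 224 (n = 2) in KO 24 h cells through 1142 ± 34.1 (n = 3) at KO 2 h, 1022 ± 43.3 (n = 3) in KO growing, 986 ± 111 (n = 2) in WT 24 h and 865 ± 115 (n = 3) in WT growing to 849 ± 82.5 (n = 3) in WT 2 h cells. Of its 5 neighbouring steps, 1 was free of overlap, KO 2 h over KO growing. The shared Bnip3l and Bnip3l-ps probe set 1416922_a_at had 1 such step, KO 24 h (437 ± 2.63, n = 2) over WT growing (319 ± 36.0, n = 3). For the other members named in the plot of members, 0 of 5 neighbouring steps were free of overlap. The groups were ordered by the same values, and the share of such steps over all probe sets was not counted. These counts are therefore only a description.

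Of the wider lists, the family's other genes gave 2 higher and 0 lower of 11 at 24 h, where 14.1% of all genes were higher and 8.20% lower. Pmaip1 rose from 238 ± 35.3 (SD, n = 3) to 605 ± 139 (n = 2) in WT and from 213 ± 28.0 (n = 3) to 445 ± 144 (n = 2) in KO cells, by 1.13 ± 0.16 (adjusted p = 0.0001). Bbc3 was still higher by 0.63 ± 0.12 (adjusted p = 0.00131). Of 21 p53 targets 18 were higher and 0 lower. Apaf1, the scaffold of the apoptosome, rose by 1.35 ± 0.16 (adjusted p = 1.34e-05) and Casp6, an executioner caspase, by 0.66, while Endog, a mitochondrial nuclease, fell by 0.41, in all 2 higher and 1 lower of 14.

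Regulators of the family gave 2 higher and 1 lower of 25 at 24 h, where 14.1% of all genes were higher and 8.20% lower. Foxo3, a transcription factor known to drive Bcl2l11, rose by 1.24 ± 0.19 (adjusted p = 0.000206), and Fbxw7 rose by 0.79 ± 0.11 (adjusted p = 7.54e-05). Pim2, a kinase that phosphorylates Bad, fell by 1.68 ± 0.17 (adjusted p = 4.25e-06), and it was also lower in KO than in WT cells (-0.49 ± 0.14, adjusted p = 0.0493). Among inhibitors of apoptosis, Birc2 rose by 0.50 (1 of 5).

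Beside Bnip3 and the shared Bnip3l probe set, mitophagy and autophagy genes gave 5 higher and 0 lower of 13 at 24 h. These were Atg12 (0.58), Sqstm1 (0.53), Gabarapl1 (0.47), Pink1 (0.44) and Map1lc3a (0.39), which serve autophagosome formation, cargo binding or the marking of damaged mitochondria. Hypoxia and glycolysis genes gave 7 higher and 2 lower of 23, with a median of 0.32 beside 0.08 over all genes. The 5 highest were Bhlhe40 (1.70), P4ha2 (1.06), Slc2a1 (0.92), Egln3 (0.83) and P4ha1 (0.82), and the lower ones were Kdm3a (-0.49) and Hk2 (-0.33). Neither list was tested against other genes. Over all genes, 14.1% were higher and 8.20% lower at 24 h.

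Between genotypes, over the 3 states, 0 of the 11 other family members and 0 of 21 p53 targets were called. Parp1, a DNA damage sensor that caspases cleave, was lower in KO cells (-0.50 ± 0.08, adjusted p = 0.000999), the 1 call of 14. In the autophagy list Gabarapl2 (0.75) and Pink1 (0.41) were higher and Map1lc3b (-0.28) lower, 3 of 13, where 2.11% of all genes were higher and 2.32% lower.

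Cell type markers were also called at 24 h in the mean of both genotypes, where 14.1% of all genes were higher and 8.20% lower. Of 12 ES cell markers 4 were lower (Utf1 -0.73, Klf2 -0.54, Pou5f1 -0.48 and Fbxo15 -0.41). Of 15 primitive endoderm markers 3 were higher (Lamb1 0.93, Cubn 0.61 and Sparc 0.60), and of 6 measured visceral endoderm markers 2 were higher (Apoe 0.92 and Apoa1 0.65). The only tested Apoa1 probe set carries the suffix _x_at and was dim, at 0.68 to 15.5 with a median of 4.02. That median lies under the filter's intensity of 11.9, so it was tested only through a group where it is high. The other Apoa1 probe sets, at or under 8.31, were too dim to be tested. Afp, Apob and Ttr, also listed as visceral endoderm markers, were too dim as well. Of the called genes named here, Lamb1 and Apoe were called in each genotype alone. Summed visceral endoderm markers ran from 1180.4 to 1572 in WT growing cells and from 1965 to 2925 in WT 24 h cells, and from 1404 to 1523 and 2423 to 2576 in KO cells. Apoe was the brightest of the 6, at 864 to 2711 over all arrays, and Apoa2 was next at 120 to 253. These sums therefore mostly follow Apoe. Summed feeder fibroblast markers were 799 to 1174 in the WT 24 h arrays and 1194 to 1550.1 in the KO 24 h arrays, the latter above all KO growing arrays. The median change of the 12 measured feeder markers was 0.55 in KO and 0.07 in WT cells, beside 0.11 and 0.04 over all genes, and 0 of 12 were called in either. The part of these markers in the members' changes at 24 h was not tested.

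The genes with a pattern most like each called member were found by Pearson correlation of log2 values over the 16 arrays, which share groups and runs, and are given as a description. Mcl1 1448503_at was most like Myo7a (0.908), Dab2 (0.886) and Nf1 (0.863). Bak1 was most like Pcgf2 (0.923), Stat3 (0.903) and Upf1 (0.900). Bnip3 was most like Grhpr (0.943), Flot1 (0.940) and Glb1 (0.928), and the shared Bnip3l probe set Traf3ip2 (0.933), Hprt (0.927) and Rsrp1 (0.925). Bcl2l2 was most like Insig2 (0.905), Lrp1 (0.904) and Asph (0.902), and Bcl2l11 1456005_a_at Yap1 (0.864), Plaur (0.857) and Capzb (0.825). Dab2, the second for Mcl1, is 1 of the 6 primitive endoderm markers that were higher in KO cells.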

How the data were processed

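Each of the 16 samples was hybridised to 1 Affymetrix MOE430A array. The deposited values are linear intensities above 0, with 1 for each probe set on each array, and they show that the authors had scaled every array to a trimmed mean of 100.04 or nearly so. The sources used here do not name the method that summarised the probes of a set. The scale is known from the values, and the values were not centred by gene. The 16 columns were matched to samples by their titles, and 0 columns stayed unmatched. The instrument settings deposited beside them hold no expression value and gave the hybridisation times, from which runs and days were inferred. No sample title names a run.

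Controls, 64 of the 22690 probe sets, did not enter. The annotation gave 1 symbol to 20393 probe sets, several to 691 and none to 1606. Groups were taken from the labels. limma 3.58.1 in R 4.3.3 fitted log2(intensity + 16) (lmFit, contrasts.fit, eBayes with an intensity trend). Testing required a group mean, in 1 or more groups, above the 30th percentile of all values (4.80 on the log2 scale). The fit had 6 group means, 10 residual and 8.55 prior degrees of freedom, and 12 comparisons. A gene was represented by its tested probe set with the highest mean. The number of arrays limits the precision. The procedure was tested on simulated data.

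The members and the gene lists were chosen with earlier results of these data known. All member probe sets were described. Of a list, genes called in a comparison were named, up to the 5 largest rises and falls, and Bbc3, Pmaip1, Apaf1, Cdkn1a and Mdm2 could always be named. For called members the 3 most correlated genes were named. The 28 alternatives left out each array in turn (16) or changed the added constant, filter, normalization, variance trend, groups fitted, blocks, hybridisation day or arrays with high 18S signal (12). Whether equal experiment numbers pair samples was checked by correlating deviations from the group means, which ran from -0.09 to 0.29 and passed 0.1 in 12 of 18 pairs. In WT growing and 2 h cells all 3 pairs passed it (0.20, 0.23 and 0.29), each within 1 run, so in these pairing cannot be told apart from the run. Across runs the values were mixed. WT and KO 2 h replicates 1 and 2 gave 0.170 and 0.174, while WT and KO growing replicate 2 gave -0.09 and KO growing and 2 h replicate 1 gave -0.06. Both WT and KO 24 h pairs gave 0.257, which is 1 value counted again, because deviations within groups of 2 arrays mirror each other. The main fit did not pair samples, and the experiment number was a block only in an alternative. The pairing is unsettled, and the labels give no shared origin.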

Additional observations from a re-analysis of the deposited data

How the results depend on the processing

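Limits were set by array number, 2 or 3 per group, and by dim probe sets, of which Bcl2 and 3 others were not tested. The number of member probe sets called moved as follows. For KO against WT over the 3 states it was 3, and it became 1 with no filter on dim probe sets, 0 without the second hybridisation day, 1 without the arrays of high 18S signal, and 0 to 3 when 1 array was left out. In growing cells it was 0 and became 1 with the run as a fixed block. For 2 h against growing over both genotypes it was 0 and became 1 with a filter at the median, with the run as a random block or without the second day, and 0 to 1 with 1 array left out; the probe set was Bad 1416582_a_at in each of these. For 24 h against growing in WT it was 0, and became 1 with an added 64, a filter at the median, only the groups compared or the run as a random block, 3 with quantile normalization, 5 with the run as a fixed block, 2 without the 18S arrays, and 0 to 3 with 1 array left out. In KO it was 2, and became 1 with an added 1, no filter, no intensity trend or without the 18S arrays, 4 with a filter at the median or the run as a fixed block, 0 with only the groups compared or without the second day, and 0 to 5 with 1 array left out. For 24 h over both genotypes it was 9, lay between 6 and 10 under the 12 settings that left out no single array, and between 5 (without WT 24 h replicate 1) and 10 with 1 array left out. With 1 array left out of a 24 h group, the lone array was assumed to vary like the other groups. The other 6 comparisons stayed at 0 under all 28 alternatives. No called member change turned its direction under them, nor did those of Bid over the 3 states and Bad 1416582_a_at at 2 h, and other member changes were not followed. Where calls ended, the cause was not tested, other than that fewer arrays or more probe sets entered.

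Whether the experiment numbers pair the samples is unsettled. In WT growing and 2 h cells all 3 pairs correlated over 0.1, each within 1 run, and the block left 0 called. With the number as a replicate block, 6 member probe sets were called for KO against WT over the 3 states, with Bid 1417045_at and 1448560_at at adjusted p = 0.0453 and 0.0377, 1 for 2 h over both genotypes, and 5 in WT and 4 in KO at 24 h; the count at 24 h over both genotypes was 9 again.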
